A study of Mus musculus with 6 samples.

Results

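Axon guidance ligands and receptors were described in undifferentiated mouse embryonic stem cells (mESCs) that carry or lack *Alkbh1*. The members are the genes whose symbol, in the larger of the deposited tables, is that of an Eph receptor, an ephrin, a semaphorin, a plexin, a Slit, a Robo receptor, a neuropilin, a netrin, *Dcc* or an Unc5 receptor. The rule found 53 of 33142 probe sets and 36 genes, against 15198 genes named in the whole table. Each gene is represented by its probe set with the highest mean over all arrays. Of the 36 genes, 12 were Eph receptors or ephrins, 18 were semaphorins, plexins or neuropilins, 4 were Slits or Robo receptors, and 2 were *Ntn1* and *Dcc*.

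Guidance cues steer growing axons and migrating cells by attraction or repulsion at the growth cone. Ephrins are bound to the cell surface and signal to Eph receptor tyrosine kinases on a neighbouring cell, and the ephrin itself can signal back into its own cell. Semaphorins act through plexins, with a neuropilin as the binding partner for most secreted class 3 semaphorins, Slits act through Robo receptors, and netrins through *Dcc* and the Unc5 receptors. Many of these genes also act outside the nervous system, in blood vessels, in epithelia and in early embryos.

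The study compared wild-type (WT) mESCs with *Alkbh1*-/- mESCs on a C57BL/6 background, with 3 Affymetrix arrays of each genotype. All cells were undifferentiated (day 0), at passage 8, and kept with leukemia inhibitory factor, and the study grew its mESCs on irradiated mouse embryonic fibroblasts. According to the study, the mESCs came from littermate blastocysts of heterozygous parents. The array names of a genotype share 1 stem, C3 for WT and C10 for *Alkbh1*-/-, so genotype and cell line cannot be told apart, and nothing states that the arrays came from separate cultures.

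The arrays were not analysed one by one here. The values used are the authors' mean log2 value over all 6 arrays for 33142 probe sets, and the authors' mean intensity in each genotype for 4232 probe sets. The 4232 belong to the authors' list of probe sets with a small nominal p, taken from 7320 left by a filter, so a probe set without group means may have differed too. A log2 difference below is that of the 2 group means, *Alkbh1*-/- minus WT, and it has no SD, n or p. No difference could therefore be set against the spread between replicates. The smallest difference among the 4232 was 0.37 on the log2 scale, a 1.29-fold difference, and 2179 were higher and 2053 lower in *Alkbh1*-/- mESCs.

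The targeted gene had mean intensities of 761 in WT and 25.7 in *Alkbh1*-/- mESCs at probe set 1434660_at, a log2 difference of −4.89. Its other probe set, 1438681_at, was at 120.0 and 34.6. Pluripotency genes were bright, with mean log2 values over all arrays of 12.6 for *Pou5f1*, 12.7 for *Sox2* and 12.5 for *Nanog*. Fibroblast markers were also present on the arrays. Of 25 markers of feeder fibroblasts, 15 had group means, and all 15 were lower in *Alkbh1*-/- mESCs, by −0.52 to −1.11 on the log2 scale with a median of −0.88. Their summed intensity was 12952 in WT and 6921 in *Alkbh1*-/- mESCs. Among all probe sets with group means, 48.5% were lower. Of 491 X-linked probe sets with group means, 462 were higher in *Alkbh1*-/- mESCs. All 7 Y-linked probe sets with group means were lower, by −5.65 for *Eif2s3y*, −3.23 to −4.87 for *Ddx3y* and −2.33 to −3.89 for *Uty*. Mean intensities in WT and *Alkbh1*-/- mESCs were 751 and 14.9 for *Eif2s3y*, 412 and 14.1 for *Ddx3y* (1426438_at), and 94.8 and 6.38 for *Uty* (1426598_at). The lines therefore differed at sex-linked genes, with Y-linked values far lower in *Alkbh1*-/- mESCs and X-linked values mostly higher. What goes with that difference cannot be told apart from genotype. In bulk RNA, fewer cells of a type and less RNA per cell cannot be told apart.

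Group means were found for 6 of the 36 members at the probe set that represents them. Lower in *Alkbh1*-/- mESCs were *Efnb2*, *Epha1*, *Ephb4* and *Slit3*, and higher were *Efna3* and *Sema5b*. A 1.5-fold ratio was exceeded by *Efnb2*, *Epha1* and *Slit3* among the lower genes and by *Sema5b* among the higher ones, that is, by 3 and 1 of the 6. Over all probe sets with group means, 30.3% were lower and 32.8% were higher by more than 1.5-fold. Without probe sets known to lie on the sex chromosomes these shares were 33.7% and 26.9%. The other 30 members have only a mean over all arrays, from 3.94 for *Plxnb3* to 9.62 for *Epha2* on the log2 scale. Over all 36 members the median was 5.92, and 23 of them were dimmer than the median probe set of the table (6.31). The median was 6.19 among Eph receptors and ephrins, from 4.40 for *Epha8* upwards, 5.59 among semaphorins, plexins and neuropilins, and 6.38 among the 4 Slit and Robo genes. The brightest semaphorin value, 8.70, is that of a probe set with the symbol *Sema3e* but the gene identifier of *Chmp6*, described below.

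**Figure D1:**
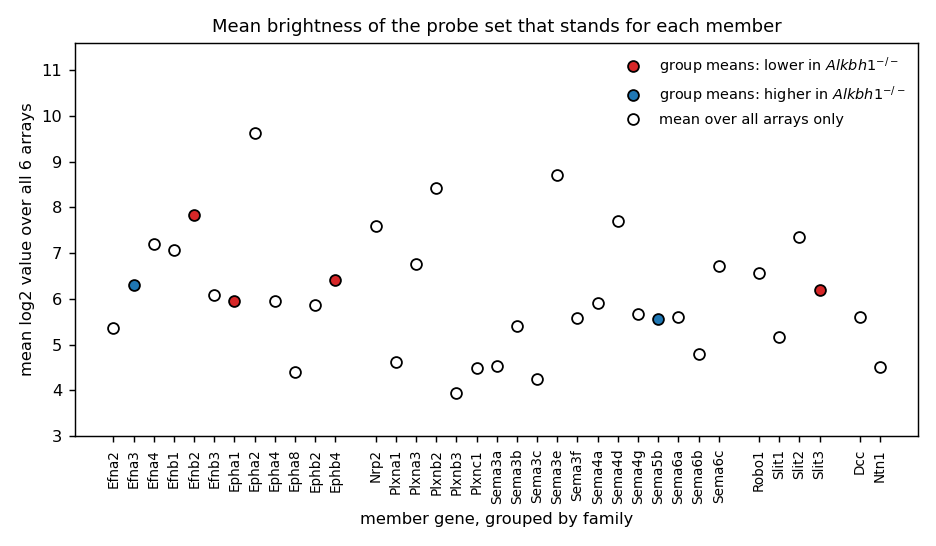
Mean log2 value over all 6 arrays (vertical axis) of the probe set that represents each of the 36 members (horizontal axis, by family). Red and blue points are the 6 members with group means, 4 lower and 2 higher in *Alkbh1*-/- mESCs, and open points have only the mean over all arrays. The value is a probe set's brightness and does not order the genes by abundance. The point of *Sema3e* is a probe set that carries the gene identifier of *Chmp6*.

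The same families were also followed through the gene identifiers of the table, matched to RefSeq genes. This gave 113 probe sets of 60 genes, of which 24 genes are not found by symbol. Group means were available for 25 of the 113 probe sets (22.1%, against 12.8% of all probe sets), from 18 genes. These 18 are the 6 members above, 6 members at a probe set other than the one that represents them, and 6 genes not found by symbol. At the brightest probe set with group means, 14 of the 18 genes were lower and 4 were higher in *Alkbh1*-/- mESCs, with a median log2 difference of −0.59. Over all 4232 probe sets with group means 48.5% were lower, and without those of the sex chromosomes 54.0%. These shares count probe sets and not genes, and no share by gene was computed. The list holds no difference smaller than 0.37 in size, so its median lies near one edge of that gap or the other, at 0.42 over all probe sets and at −0.44 without the sex chromosomes. Of the 25 probe sets, 20 were lower. By more than 1.5-fold, 13 (52%) were lower and 3 (12%) higher, against 30.3% and 32.8% of all probe sets with group means. Without the sex chromosomes the latter shares were 33.7% and 26.9%. For 13 of the 18 genes the brightest probe set of the gene is the one with group means, while for *Epha7*, *Nrp1*, *Nrp2*, *Plxnb1* and *Sema6a* it is a dimmer one. Among the 13, *Efna2*, *Efnb2*, *Epha1*, *Ntn1*, *Robo3*, *Sema3c*, *Sema4f*, *Slit3* and *Unc5b* each also have a dimmer probe set without group means. In all 5 genes with several such probe sets, these lay on the same side.

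**Figure D2:**
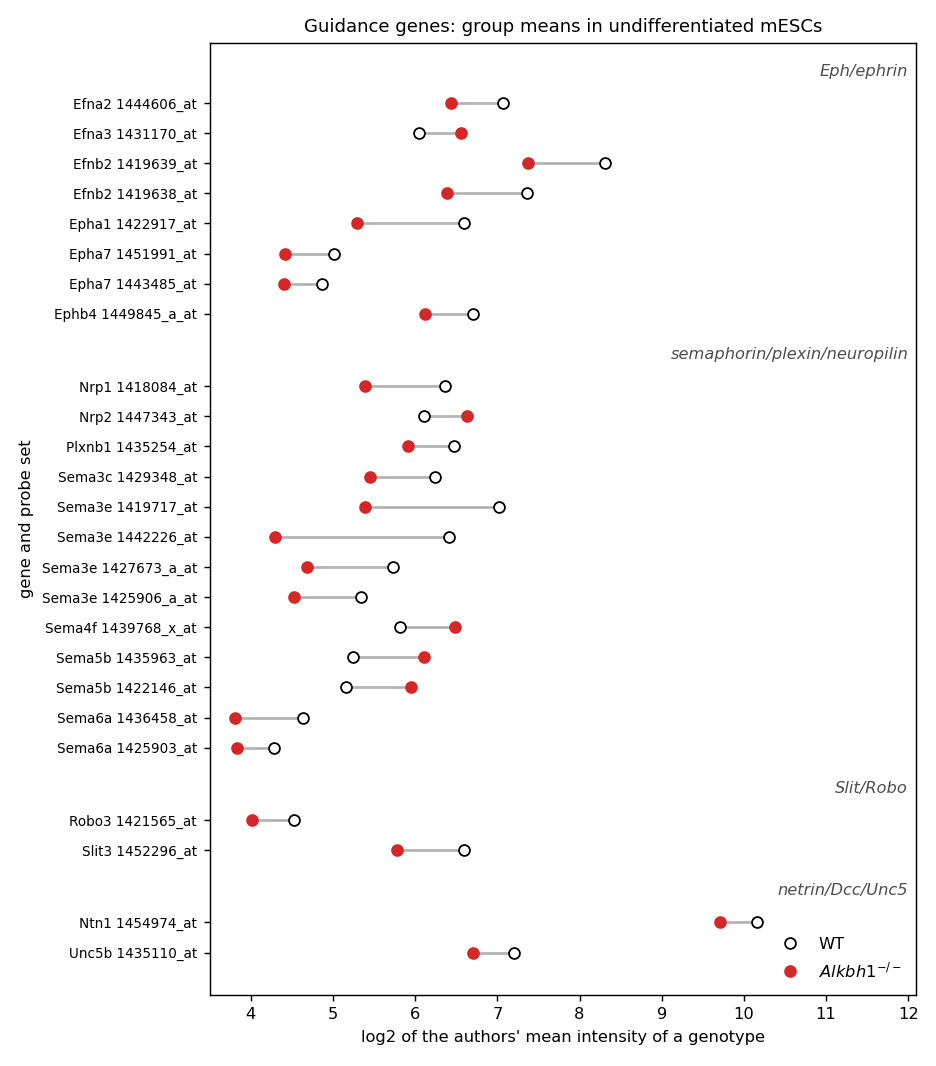
Log2 of the authors' mean intensity (horizontal axis) in WT (open points) and *Alkbh1*-/- mESCs (red points) for the 25 guidance probe sets with group means, 1 per row and grouped by family. The red point lies to the left of the open point in 20 rows, and to its right for *Efna3*, *Nrp2*, *Sema4f* and both probe sets of *Sema5b*.

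Among Eph receptors and ephrins, 5 of the 6 genes with group means were lower in *Alkbh1*-/- mESCs. Of all probe sets with group means 48.5% were lower, and 54.0% without the sex chromosomes. The ligand ephrin-B2 (*Efnb2*), which marks arterial endothelium and signals in both directions, had mean intensities of 317 in WT and 166 in *Alkbh1*-/- mESCs at probe set 1419639_at, a log2 difference of −0.93. Its second probe set, 1419638_at, was at 165 and 84.0, a log2 difference of −0.97, so that the 2 readings of the gene were 1.91-fold and 1.96-fold lower. Another, dimmer probe set had no group means. *Ephb4* encodes the receptor that binds ephrin-B2 with high preference, and its single probe set was at 104 in WT and 69.4 in *Alkbh1*-/- mESCs. That log2 difference of −0.58 is a 1.4996-fold ratio, just inside the 1.5-fold threshold. Both genes of this ligand and receptor pair were lower in *Alkbh1*-/- mESCs, and *Efnb2* differed by more.

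The promoters of this pair are shown because ligand and receptor differed in the same direction, as the 250 bases before the RefSeq start in GRCm38.p6, written 5′ to 3′ on the strand of the gene. A shared direction is not particular to this pair. Of the 18 guidance genes with group means 14 were lower, *Slit3* with *Robo3* and *Ntn1* with *Unc5b* among them. Capitals mark GC boxes, searched as GGGCGG and its reverse complement CCGCCC. *Efnb2* lies on the minus strand (chr8:8661243-8661492) and *Ephb4* on the plus strand (chr5:137349859-137350108).
Efnb2: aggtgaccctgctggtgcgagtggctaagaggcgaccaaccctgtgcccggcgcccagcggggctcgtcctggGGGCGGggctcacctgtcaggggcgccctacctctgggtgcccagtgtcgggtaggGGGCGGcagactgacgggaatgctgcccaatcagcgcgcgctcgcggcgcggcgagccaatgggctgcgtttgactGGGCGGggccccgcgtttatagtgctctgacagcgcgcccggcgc
Ephb4: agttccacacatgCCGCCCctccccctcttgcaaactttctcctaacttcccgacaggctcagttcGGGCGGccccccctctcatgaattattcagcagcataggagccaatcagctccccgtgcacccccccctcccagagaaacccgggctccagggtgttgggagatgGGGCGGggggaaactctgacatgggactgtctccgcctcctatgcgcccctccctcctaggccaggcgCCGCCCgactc
The window of *Efnb2* held 3 GC boxes and 27 CG pairs, and that of *Ephb4* held 4 GC boxes and 12 CG pairs. Among 27025 promoters, 32.9% held a GC box and the median was 6 CG pairs. The CCAAT box, searched as CCAAT and ATTGG, was found 2 times in *Efnb2*, 1 time in *Ephb4* and in 34.5% of all promoters. These matches describe the letters of the window and do not show binding.

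The largest difference among the Eph receptors with group means was that of *Epha1*, an EphA receptor known from epithelia. Its mean intensity was 96.8 in WT and 39.1 in *Alkbh1*-/- mESCs (1422917_at), a log2 difference of −1.31 and a 2.48-fold reduction. The other probe set of *Epha1*, 1432399_a_at, was dimmer and had no group means. The A-type ligand *Efna3*, tethered to the membrane by a lipid anchor, was the gene of this family that was higher in *Alkbh1*-/- mESCs. It was at 66.0 in WT and 94.1 in *Alkbh1*-/- mESCs, a log2 difference of 0.51. *Efna2*, another A-type ligand, differed in the opposite direction at a probe set found through its gene identifier, with 134 in WT and 86.7 in *Alkbh1*-/- mESCs (log2 difference −0.63). The probe set that carries its symbol, 1417521_at, had no group means. *Epha7*, a receptor of A-type ephrins in the developing neural tube, was dim, with 32.2 in WT and 21.4 in *Alkbh1*-/- mESCs at 1451991_at (log2 difference −0.59) and −0.46 at 1443485_at. Its brightest probe set, 1427528_a_at, had no group means. *Epha2*, the brightest member with a mean log2 value of 9.62, had no group means, and neither had *Ephb2* or *Epha4*. The X-linked ligand *Efnb1* had none at any of its 3 probe sets.

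The semaphorin, plexin and neuropilin genes held both the largest decrease and the largest increase of the guidance genes with group means. *Sema3e*, a secreted repellent that binds plexin-D1, was lower at all 4 of its probe sets. At 1419717_at its mean intensity was 129 in WT and 41.9 in *Alkbh1*-/- mESCs, a log2 difference of −1.62 and a 3.08-fold reduction. The other 3 probe sets gave log2 differences of −2.12, −1.05 and −0.82. The sizes therefore spread from 1.76-fold to 4.33-fold for this 1 gene, while the direction did not vary. These values do not come from the probe set that represents *Sema3e* under the rule. That probe set, 1433684_at, carries the symbol *Sema3e* but the gene identifier of *Chmp6*, which encodes a subunit of the endosomal sorting machinery, and it has no group means. The receptor gene *Plxnd1* had no group means.

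*Sema5b*, a transmembrane semaphorin with thrombospondin repeats, was higher in *Alkbh1*-/- mESCs at both of its probe sets. It was at 35.8 in WT and 61.9 in *Alkbh1*-/- mESCs at 1422146_at (log2 difference 0.79), and at 38.0 and 68.9 at 1435963_at (log2 difference 0.86). *Sema4f*, a transmembrane semaphorin of class 4, was higher too, with 56.2 in WT and 89.4 in *Alkbh1*-/- mESCs (log2 difference 0.67). Of the other ligands, the secreted *Sema3c* was at 75.9 in WT and 43.8 in *Alkbh1*-/- mESCs (log2 difference −0.79), and *Sema6a* was lower at a pair of probe sets near the bottom of the range (log2 differences −0.83 and −0.46). The brightest probe set of *Sema6a* had no group means. Thus *Sema3c* and *Sema3e* of class 3 were lower, and *Sema4f* and *Sema5b* were higher. *Sema3a*, *Sema3b*, *Sema3f*, *Sema4a*, *Sema4b*, *Sema4c*, *Sema4d* and *Sema4g* had no group means, so the classes as wholes were not compared.

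The promoters of *Sema3e* and *Sema5b*, the genes at the 2 ends of this range, are shown in the same way. Both lie on the plus strand, *Sema3e* at chr5:14025026-14025275 and *Sema5b* at chr16:35541112-35541361.
Sema3e: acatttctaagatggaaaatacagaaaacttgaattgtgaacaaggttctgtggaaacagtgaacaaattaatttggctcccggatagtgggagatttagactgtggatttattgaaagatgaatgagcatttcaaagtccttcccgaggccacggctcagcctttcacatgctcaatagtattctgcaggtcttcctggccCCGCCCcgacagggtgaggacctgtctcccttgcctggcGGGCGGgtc
Sema5b: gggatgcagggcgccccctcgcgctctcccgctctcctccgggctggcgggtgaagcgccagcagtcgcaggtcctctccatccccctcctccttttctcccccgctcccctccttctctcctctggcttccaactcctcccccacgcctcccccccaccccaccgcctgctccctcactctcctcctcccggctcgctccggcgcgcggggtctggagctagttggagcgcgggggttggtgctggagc
The window of *Sema3e* held 2 GC boxes and 7 CG pairs, near the median of 6 over all promoters. That of *Sema5b* held 0 GC boxes and 19 CG pairs, more than 80.4% of all promoters. None of the 4 windows held the E-box CACGTG, which was found in 6.05% of all promoters.

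Of the receptors for semaphorins, neuropilin-1 (*Nrp1*), which is also a co-receptor for vascular endothelial growth factor, was at 82.1 in WT and 41.8 in *Alkbh1*-/- mESCs (1418084_at, log2 difference −0.97). Its brightest probe set, 1448943_at, had no group means. *Nrp2* was higher at its dimmest probe set, with 69.2 in WT and 99.2 in *Alkbh1*-/- mESCs (log2 difference 0.52), while its 2 brighter probe sets, with mean log2 values of 8.29 and 7.59, had none. *Plxnb1*, a receptor for class 4 semaphorins, was at 88.5 in WT and 60.4 in *Alkbh1*-/- mESCs (log2 difference −0.55). It was the only plexin with group means. The X-linked plexins *Plxna3* and *Plxnb3* had none, so none of the 3 X-linked members could be set against the X-linked probe sets as a whole.

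In the Slit and Robo group, *Slit3* and *Robo3* had group means, and both were lower in *Alkbh1*-/- mESCs. *Slit3*, a secreted ligand of Robo receptors, was at 96.3 in WT and 54.9 in *Alkbh1*-/- mESCs (1452296_at), a log2 difference of −0.81 and a 1.75-fold reduction. The other probe set of *Slit3*, 1427086_at, was dimmer and had no group means. *Robo3*, a receptor that governs midline crossing, was dim, with 23.1 in WT and 16.2 in *Alkbh1*-/- mESCs (log2 difference −0.52). *Slit1*, *Slit2* and *Robo1* had no group means, and their mean log2 values were 5.16, 7.35 and 6.57.

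The netrin ligand *Ntn1* and the receptor *Unc5b*, which mediates repulsion and can signal for cell death without ligand, were slightly lower in *Alkbh1*-/- mESCs, both by less than 1.5-fold. *Ntn1* was at 1145 in WT and 841 in *Alkbh1*-/- mESCs at 1454974_at (log2 difference −0.45). This probe set has a mean log2 value of 9.94 and is named through its gene identifier, whereas the one that carries the symbol is at 4.52 and had no group means. *Unc5b* was at 147 in WT and 105 in *Alkbh1*-/- mESCs (log2 difference −0.49), at a probe set whose symbol is *Slc4a2* and whose gene identifier is that of *Unc5b*. *Dcc* had a mean log2 value of 5.60 and no group means.

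Of the 10 ligand genes with group means 7 were lower, and of the 8 receptor genes 7 were lower, with median log2 differences of −0.71 and −0.57. Over all probe sets with group means 48.5% were lower, and 54.0% without the sex chromosomes, counted by probe set and not by gene. Every fibroblast marker with group means was lower as well (median −0.88), and the part of feeder fibroblasts in the guidance genes' values was not tested.

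Other guidance cues and receptors were examined as a list of 37 genes, of which 33 are on the table and 11 had group means. Of these, 6 were lower and 5 higher in *Alkbh1*-/- mESCs, where 48.5% of all probe sets with group means were lower. By more than 1.5-fold, 6 were lower and 1 was higher, against 30.3% and 32.8% of all probe sets with group means (33.7% and 26.9% without the sex chromosomes). All 6 of the lower genes exceeded 1.5-fold, namely *Cxcl12* (−0.80), *Flrt3* (−0.78), *Gpc1* (−0.62), *Nrcam* (−0.61), *Fzd3* (−0.59) and *Celsr3* (−0.59). Only 1 of 4 probe sets of *Fzd3*, 1 of 3 of *Cxcl12* and 1 of 3 of *Nrcam* had group means. *Flrt3* encodes a surface protein that binds Unc5 receptors, and it was lower at both of its probe sets. *Fzd3* and *Celsr3* act together in planar polarity and in the growth of axon tracts. Among the higher genes, *Ncam1*, a neural cell adhesion molecule, exceeded 1.5-fold, with 164 in WT and 254 in *Alkbh1*-/- mESCs at its brightest probe set (log2 difference 0.63) and up to 1.15 over its 4 probe sets with group means.

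Of 66 intracellular effectors of guidance receptors, 64 are on the table and 13 had group means, 9 lower and 4 higher in *Alkbh1*-/- mESCs. By more than 1.5-fold, 6 were lower and 3 higher. The shares of all probe sets given for the other cues apply here too, and 54.0% were lower without the sex chromosomes. The collapsin response mediators, which bind tubulin and act downstream of semaphorins, held differences in both directions. *Crmp1* was at 291 in WT and 96.2 in *Alkbh1*-/- mESCs (log2 difference −1.60) and *Dpysl2* at 872 and 328 (log2 difference −1.41). *Dpysl4* of the same family was higher, with 41.3 in WT and 108 in *Alkbh1*-/- mESCs (log2 difference 1.38). Only 1 of 2 probe sets of *Dpysl2* and 1 of 3 of *Dpysl4* had group means. The kinase gene *Pak1*, a target of Rac and Cdc42, was lower at 3 of 3 probe sets, with 714 in WT and 334 in *Alkbh1*-/- mESCs at the brightest (log2 difference −1.10). Also lower by more than 1.5-fold were the adaptors *Grb10* (−1.61) and *Grb7* (−0.99) and the exchange factor *Farp1* (−0.94), which binds plexins. For *Grb10*, 2 of 3 probe sets had group means. *Mical1*, an actin-oxidising enzyme downstream of plexins, was at 120.3 in WT and 244 in *Alkbh1*-/- mESCs (log2 difference 1.02), and the Src family kinase *Yes1* was higher at all 4 of its probe sets (0.61 at the brightest).

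**Figure D3:**
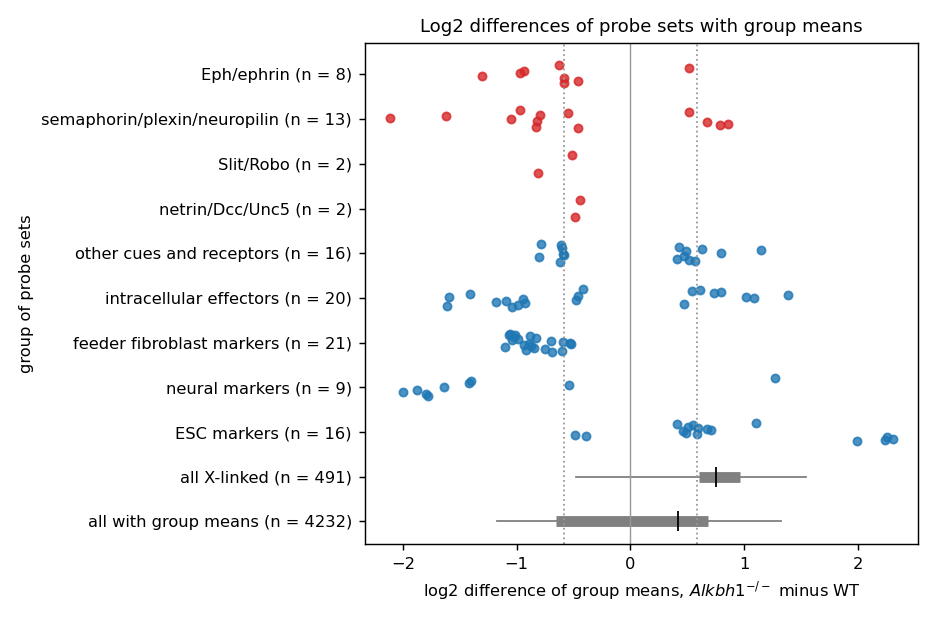
Log2 difference of group means, *Alkbh1*-/- minus WT (horizontal axis), for probe sets with group means in each gene group (rows, with the number of probe sets). Points are probe sets, grey bars span the 25th to 75th and thin lines the 5th to 95th percentiles with the median as a tick, and dotted lines mark 1.5-fold. Guidance genes (red) lie mostly to the left of 0, where all 21 fibroblast marker probe sets lie, while X-linked probe sets lie mostly to the right.

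Markers of other cell types were set beside these values. Of 13 neural genes, 4 had group means, and *Sox11* (−1.64), *Neurod1* (−1.41) and *Map2* (−0.54) were lower while a dim probe set of *Sox1* was higher (1.27). Of 12 markers of undifferentiated mESCs, 8 had group means and 7 of these were higher in *Alkbh1*-/- mESCs, up to 2.31 for *Tbx3*. The other, *Utf1*, was lower (−0.49 at its brightest probe set). Among all probe sets with group means, 48.5% were lower, and 54.0% without the sex chromosomes. *Pecam1* was the endothelial marker with group means (0.57), of 3 on the table. The part of other cell types in the guidance genes' values was not tested beyond these counts.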

How the data were processed

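Total RNA of 3 WT and 3 *Alkbh1*-/- samples was hybridised to Affymetrix expression arrays of the mouse genome. The authors normalized all arrays together by robust multiarray averaging (RMA in the submitters' processing notes) and deposited a table with a mean log2 value over all arrays per probe set. A service company's class comparison, deposited with it, gives the geometric mean intensity of each genotype, and per the file headers it lists 4326 entries. Its class C1 holds the WT values, which the deposited description calls a mislabelling. Both tables also hold the authors' own fold differences, test statistics and p-values, which were not used. How the larger table was filtered is not given in the sources used here.

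In the class comparison, identifiers do not belong to the values beside them: the mean of both log2 group means equals the mean over all arrays of another probe set. Group means were therefore joined to the only probe set whose mean lay within 1e-06, which placed 4232 entries, 8 of them at their printed identifier. All 4232 probe sets are listed somewhere among the printed identifiers. A further 29 entries matched several probe sets and 65 matched none. The join was tested on simulated data. Genes were named from gene identifiers, accessions and symbols through RefSeq (GRCm38.p6) for 27573 probe sets. The number of arrays limits the precision.

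The design set limma on single arrays. With group means alone no test was run, and a ratio over 1.5-fold was counted. The fold of the methods is linear in one reading and log2 in another. Members and lists were chosen with earlier results of these data known. The genes named are all guidance genes with group means, the X-linked members, and genes past 1.5-fold on the 2 wider lists, and the other genes were named after their values were seen. Python 3.11.15, pandas 2.3.3, NumPy 2.4.6 and matplotlib 3.10.9 were used.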

Additional observations from a re-analysis of the deposited data

How the results depend on the processing

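With means of groups alone, no array could be left out and no spread or p could be computed. No paired analysis was possible because the columns carry no replicate numbers. Of the 6 members with group means, 3 were lower and 1 higher by more than 1.5-fold. Over all probe sets with group means the shares were 30.3% and 32.8%. A linear fold of 2 left 1 and 0, and a log2 difference of 1.5 left 0 and 0. No share over all probe sets is given for these settings. Counting every probe set of the rule gave 5 lower and 1 higher by more than 1.5-fold, of 8 with group means. Naming genes by RefSeq identifier, chosen after the data were seen, gave 9 lower and 2 higher of 18 genes. Subtracting the median of all probe sets with group means (0.42) left 0 higher. That median lies near an edge of the gap below 0.37 in a 2-sided list and no shift between genotypes, and it could not reverse any of the 18 genes, which differed by at least 0.45 in size, so this setting says nothing about their stability. A join tolerance 5 times wider placed 17 of the 18 genes with the same values and left *Sema3e* (−1.62), the largest decrease, without a match at 1419717_at, and the mean over a gene's probe sets brought *Epha7* under 1.5-fold. Taking group means by the identifier printed in their row, which the join shows to be the wrong row, reversed 9 genes: *Efna3* (−0.62), *Ephb4* (0.75), *Slit3* (0.43), *Epha7* (0.57), *Nrp2* (−1.10), *Ntn1* (0.63), *Robo3* (1.52), *Sema3c* (0.52) and *Sema6a* (0.48). Of the 25 guidance probe sets with group means, 18 were dimmer than the median probe set (6.31), where a difference is most affected by background.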

Other observations

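The symbol and the gene identifier of a probe set disagreed for 2 of the 53 probe sets found by symbol. Besides the *Sema3e* probe set described above, 1433923_at carries the symbol *Plxnb2* and the gene identifier of *Krt77*. The probe set that represents *Plxnb2*, 1416683_at, carries the identifier of *Plxnb2* and has a mean log2 value of 8.42.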
